A study of Mus musculus with 9 samples.

Results

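The subject is Hk1, which encodes hexokinase 1, together with 8 other genes of glucose uptake and glycolysis: Hk2, Pfkl, Pfkp, Pkm, Ldha, Slc2a1, Gpi1 and Pgk1. Every probe set of the array whose gene symbol is, or includes, one of these 9 was taken. This gave 16 probe sets for 8 of the 9 genes, out of 13319 genes named on the array; Gpi1 is not among the names here. Hk1 was selected on its measured signal in mutant against wild-type colons, so those values are given as a description with no test. The arrays measured RNA from the proximal colon of 3 cSHMT mutant, 3 cSHMT heterozygous and 3 wild-type mice (1 sample per array, labelled biological replicates). cSHMT is the cytosolic serine hydroxymethyltransferase, the product of Shmt1. All 9 mice had a C57Bl/6 background after 10 generations of backcrossing, were weaned at 3 weeks onto an AIN-93G diet lacking both folate and choline, and are given as 9 weeks old. One label states 6 weeks on the diet and another 5 weeks. The wild-type mice therefore ate the deficient diet too, and no mouse on a complete diet was used here. The sex of the mice and the making of the mutant allele are not given in the labels used.

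Glycolysis turns glucose into pyruvate. GLUT1, encoded by Slc2a1, lets glucose into the cell, hexokinases trap it as glucose 6-phosphate, phosphofructokinase commits it to breakdown, and phosphoglycerate kinase and pyruvate kinase yield ATP before lactate dehydrogenase turns pyruvate into lactate. Hexokinase 1 is the broadly expressed isozyme and can bind the outer mitochondrial membrane, whereas hexokinase 2 is known for its response to insulin and to low oxygen. The colon epithelium draws much of its energy from butyrate made by bacteria, and its glucose use sits beside that.

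The promoters of Hk1 are shown because Hk1 was the starting point and has 2 annotated starts. Each window runs from 250 bases before to 50 bases after a start, both lie on the minus strand, and the sequences are from RefSeq, build GRCm38.p6. Capitals mark the letters ACGTG, the core bound by the hypoxia-inducible factors, searched on both strands; a CACGTG, the E-box of other factors, contains it.
Hk1 upstream start, chr10:62379859-62380158: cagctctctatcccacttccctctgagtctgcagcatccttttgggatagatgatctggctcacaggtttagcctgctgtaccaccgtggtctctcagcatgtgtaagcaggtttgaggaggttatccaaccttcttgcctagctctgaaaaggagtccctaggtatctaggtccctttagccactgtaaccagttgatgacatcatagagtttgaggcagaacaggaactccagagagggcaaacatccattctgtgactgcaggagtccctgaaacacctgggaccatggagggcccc
Hk1 downstream start, chr10:62340372-62340671: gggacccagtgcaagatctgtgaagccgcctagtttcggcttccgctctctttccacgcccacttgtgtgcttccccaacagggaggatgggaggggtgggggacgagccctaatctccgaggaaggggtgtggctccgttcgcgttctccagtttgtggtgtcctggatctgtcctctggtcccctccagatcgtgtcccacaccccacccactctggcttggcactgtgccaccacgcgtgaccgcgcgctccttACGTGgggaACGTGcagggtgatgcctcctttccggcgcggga
The upstream window does not hold these letters. The downstream window holds them at 2 places, which begin 7 and 16 bases after the start. Of all 32851 promoter windows, 19.6% held the letters at least once and 8.21% at 2 or more places. A CACGTG holds the letters on both strands and was counted as 2 places. The 8.21% can therefore include windows with a single CACGTG, whereas the 2 places of Hk1 are separate. Of the 12 windows of the 9 genes, 6 held them, 1 window each for Slc2a1, Hk2, Ldha, Pkm, Hk1 and Pgk1. These matches are letters only and were not tied to any binding.

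Shmt1 and the tissue markers were read first. Shmt1 has 4 probe sets, of which 1425177_at had the largest change between mutant and wild-type. It read 116.9, 120.0 and 113.1 in mutant, 297.9, 274.4 and 337.0 in heterozygous, and 564.3, 575.7 and 644.1 in wild-type colons, in the order of the labels. On 1425178_s_at and 1425179_at the log2 fold changes of mutant over wild-type were -0.79 and -0.89 (limma adjusted p = 0.309 and 0.596). On both, heterozygous and wild-type signals overlapped. The remaining probe set, 1422198_a_at, was too dim to be tested. Markers of epithelium were above the filter on dim probe sets in 8 of 8 genes and those of smooth muscle in 6 of 6. Of 7 named markers of enteric neurons and glia, 4 passed the filter, and of 3 named blood genes, 1. The arrays numbered 1 had ratios of 3′ to 5′ beta-actin signal between 4.45 and 5.02, and the other 6 arrays between 2.52 and 3.75. This ratio rises when the labelled RNA is shortened. In all, 13576 probe sets were bright enough to be tested, among them 13 of the 15 that carry only the symbol of a glycolysis gene above. The 2 others, 1 of Hk1 and 1 of Pfkp, were too dim.

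On the brighter of the 2 probe sets of Hk1 alone, mutant signal lay above that of the other genotypes in every array, while on the dimmer the genotypes overlapped. On probe set 1437974_a_at the deposited signal was 1413, 1537 and 1427 in the 3 mutant colons, 1161, 1103 and 1037 in the heterozygous colons, and 1008, 1013 and 1042 in the wild-type colons. All 3 mutant values lay above all 6 others, while heterozygous and wild-type values overlapped. The means were 1459 ± 67.7 in mutant, 1100.0 ± 61.8 in heterozygous and 1021 ± 18.4 in wild-type colons (SD, n = 3 each). The fold change of mutant over wild-type was 1.42, or 0.50 on the normalized log2 scale. Heterozygous and mutant colons are both set against the same wild-type arrays below. Set side by side by array number, the mutant minus wild-type differences were 0.42, 0.62 and 0.47 in log2 units for the arrays numbered 1, 2 and 3. The spread within genotypes was small, with a pooled SD of 0.081 in log2 units, at percentile 8.6 of all probe sets tested. This too is a description, since Hk1 was selected on the mutant and wild-type values that enter it.

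Against wild-type, heterozygous colons had a log2 fold change of 0.09 on this probe set (limma, SE 0.0972, 95% confidence interval -0.12 to 0.30, adjusted p = 0.842). Mutant against heterozygous colons gave 0.41 (SE 0.0972, 95% confidence interval 0.20 to 0.62), which did not pass after adjustment over all probe sets (limma, adjusted p = 0.356). Both comparisons share arrays with the contrast on which Hk1 was picked. The first uses the same wild-type arrays and the second the same mutant arrays, so neither is independent of the choice.

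The dimmer Hk1 probe set, 1420901_a_at, read 62.6, 59.0 and 92.1 in mutant, 38.0, 63.8 and 76.7 in heterozygous, and 32.7, 61.5 and 87.7 in wild-type colons. The genotypes overlapped throughout, and the array numbered 3 was the highest in each genotype. Its mean of 71.2 ± 18.2 in mutant and 60.6 ± 27.5 in wild-type colons (SD, n = 3) gave a log2 fold change of 0.24, and the same-number differences were 0.67, 0.02 and 0.04, so the value came mostly from the arrays numbered 1. Over the 9 arrays the correlation of the 2 Hk1 probe sets was 0.19 (Pearson r, a description over arrays that share genotype and number). Where each lies on the Hk1 transcripts was not analysed here. A probe set that carries the Hk1 symbol beside 5 other symbols, 1436822_x_at, cannot be assigned to Hk1. It read 7763, 6711 and 5512 in mutant, 7263, 6110 and 5980 in heterozygous, and 9018, 6542 and 6240 in wild-type colons, with mutant and wild-type values overlapping.

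**Figure D1:**
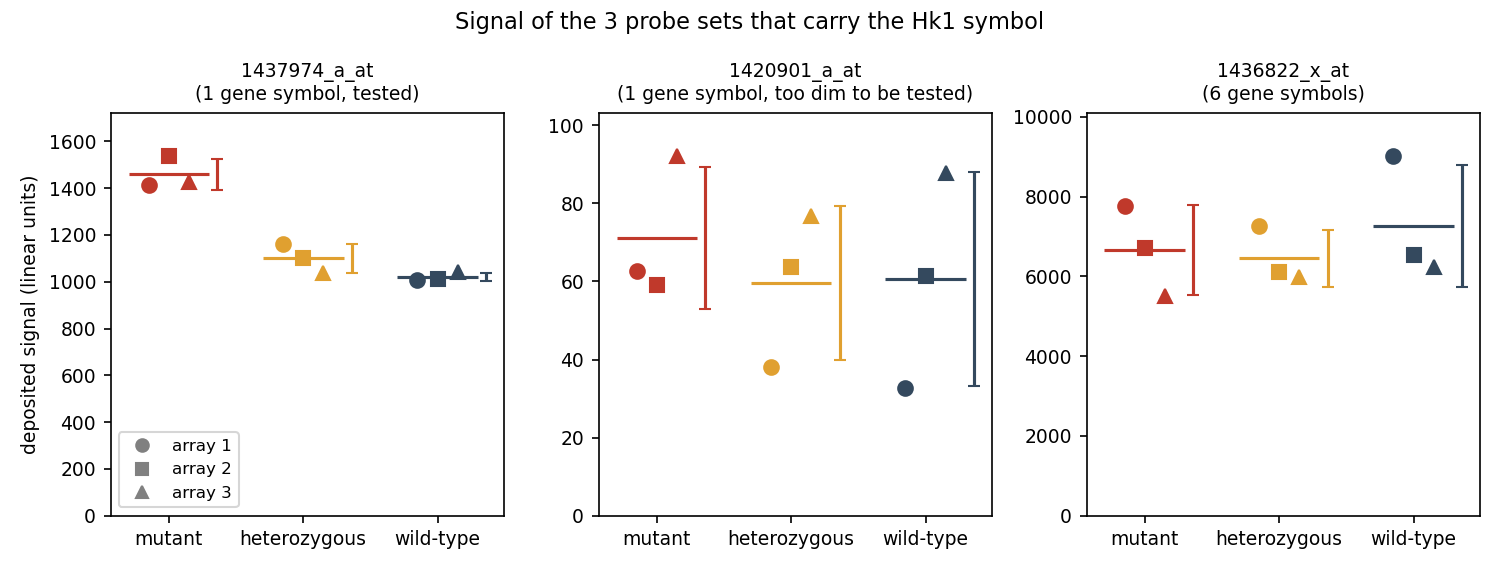
Deposited signal (linear units, axis from 0) of the 3 probe sets that carry the Hk1 symbol, by genotype; each point is 1 colon, its shape the array number, the line the mean and the bar the SD (n = 3). On the left probe set the 3 mutant colons read 1413 to 1537, above the other 6 at 1008 to 1161, while on the other panels mutant and wild-type colons overlap.

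In bulk tissue, fewer cells of a type and less RNA per cell cannot be told apart, and other cell markers are given here beside Hk1. The summed signal of 8 epithelial markers was 34010 to 42370 in mutant and 36440 to 42340 in wild-type colons. The 7 named neuron and glia markers summed to 2858 to 3161 in mutant and 2710 to 3584 in wild-type colons, and those of both lists overlapped. Immune markers, 7 named genes, summed to 2036 to 3561 in mutant, 1807 to 3557 in heterozygous and 2799 to 4479 in wild-type colons. Of these, 6 passed the filter and all 6 had lower values in mutant than in wild-type colons, with a median log2 fold change of -0.34, and none passed the test. In heterozygous against wild-type colons all 6 were lower too, with a median of -0.21. Ighm, the heavy chain of immunoglobulin M, named here after its values were seen, read 466.1, 518.0 and 431.4 in mutant and 851.2, 1078 and 667.6 in wild-type colons, with no overlap. In heterozygous colons it read 255.9, 418.3 and 352.8, also below all wild-type values. The 2 named adipocyte markers summed to 2126 to 4303 in mutant, 4344 to 6260 in heterozygous and 4304 to 6256 in wild-type colons. The mutant and wild-type sums only just did not overlap. Fabp4 alone did not overlap, while Adipoq did, at 312.7 to 909.8 in mutant and 747.3 to 1233 in wild-type colons. The part of the immune and adipocyte differences in the Hk1 values was not tested. Ret, S100b, Gfap and Cd3g, of the neuron, glia and immune lists, were below the filter.

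The genes whose pattern over the 9 arrays was most like that of Hk1 were taken from 8201 genes by Pearson r on normalized log2 signal. They were Actn4, an actin crosslinker (r = 0.954), Sart3, a factor that recycles spliceosomal RNAs (0.932), Gprasp1, a receptor sorting protein (0.926), Fam120a (0.918) and Armcx2 (0.917). None of them is an enzyme of glycolysis. Actn4 read 2023 ± 52.2 in mutant, 1741 ± 74.1 in heterozygous and 1734 ± 108 in wild-type colons (SD, n = 3). Sart3 read 268.6 ± 17.4 in mutant, 211 ± 16.9 in heterozygous and 202.4 ± 1.61 in wild-type colons. By the same measure the 12 other tested probe sets of the glycolysis genes had r between -0.25 for Hk2 and 0.44 for Pgk1 1417864_at. These r values were picked as the highest of all genes ranked and are a description.

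Of the 13 tested probe sets, none passed an adjusted p of 0.05 in any of the 3 comparisons (limma, Benjamini-Hochberg over all probe sets). Over the whole array 0.0221% of probe sets passed in mutant against wild-type, 0.0% in heterozygous against wild-type and 0.0221% in mutant against heterozygous. At an unadjusted p under 0.05 there was 1 of 13 in mutant against wild-type, where the whole array had 3.84%; it was the Hk1 probe set of the choice and nothing is read from it. There were 2 of 13 in heterozygous against wild-type, beside 8.01% of all, and 2 of 13 in mutant against heterozygous, beside 7.56%. The first pair were Pfkl 1450269_a_at and Pgk1 1439435_x_at, and the second Hk1 1437974_a_at and the same Pfkl probe set.

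**Figure D2:**
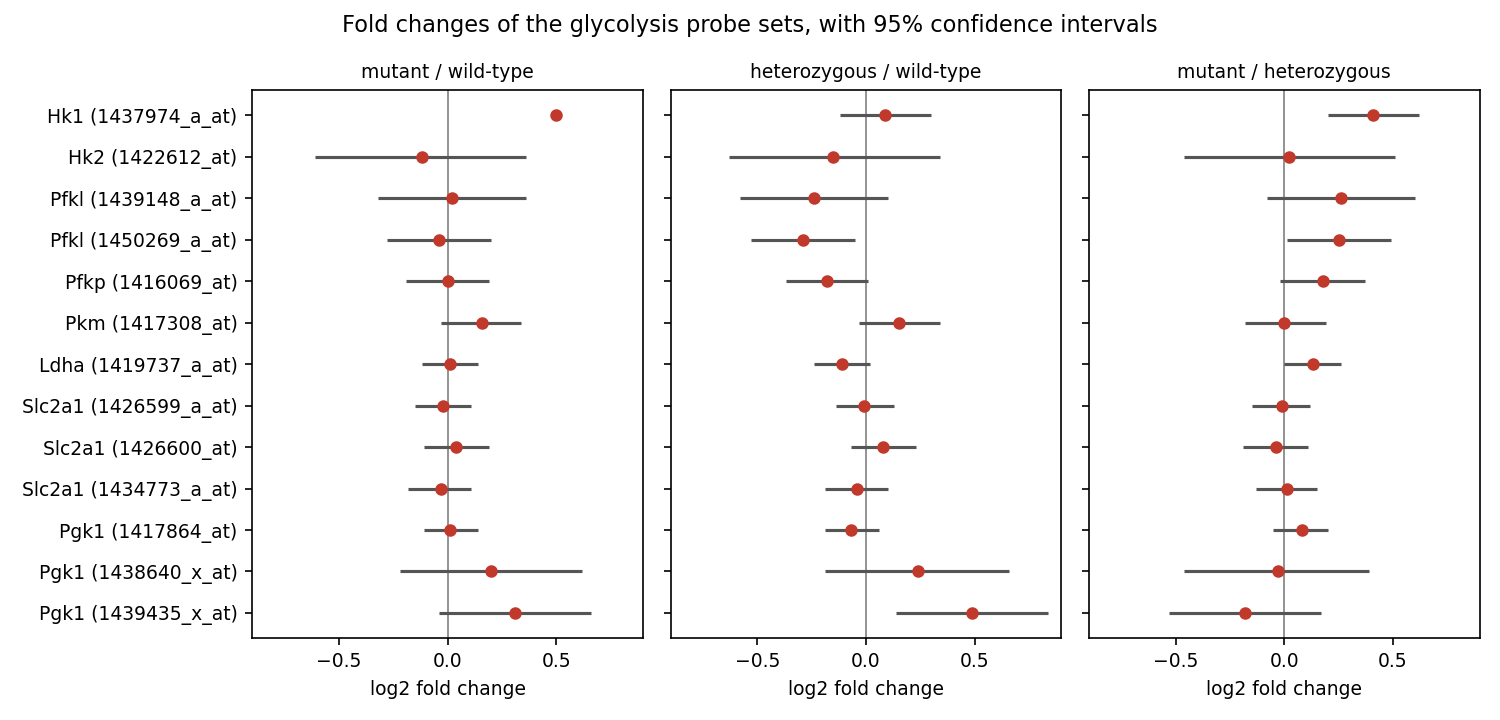
Log2 fold change (x axis) of the 13 tested probe sets of the glycolysis genes in the 3 comparisons, with 95% confidence intervals from limma as bars. Hk1 1437974_a_at, selected on the left contrast and drawn there without an interval, sits at 0.50 there and 0.41 on the right, and the intervals of the 3 Slc2a1 probe sets stay within -0.19 and 0.23 in all panels.

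Slc2a1, the glucose transporter GLUT1, had 3 probe sets, and none separated the genotypes. The leading one, 1434773_a_at, that is, the one with the highest mean, read 4792, 3881 and 3388 in mutant, 4189, 3871 and 3621 in heterozygous, and 4516, 3735 and 4015 in wild-type colons. The groups overlapped, and the log2 fold change of mutant over wild-type was -0.03 (95% confidence interval -0.18 to 0.11) and that of heterozygous over wild-type -0.04 (-0.19 to 0.10). The 2 other Slc2a1 probe sets had -0.02 and 0.04 in mutant and -0.01 and 0.08 in heterozygous colons. On the normalized log2 scale the pooled SDs of the 3 probe sets within genotypes were small, between percentiles 3.3 and 7.58 of all probe sets tested. On the deposited scale 1434773_a_at read 4020 ± 712 in mutant colons (SD, n = 3).

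Hk2, the hexokinase that responds to insulin, varied more between arrays than Hk1 1437974_a_at. It read 908.0, 896.7 and 1610 in mutant, 960.1, 1063 and 1277 in heterozygous, and 1019, 1069 and 1555 in wild-type colons. The array numbered 3 was the highest in every genotype, an order that 12.0% of all tested probe sets shared. The means were 1138 ± 409 in mutant, 1100.0 ± 161 in heterozygous and 1214 ± 296 in wild-type colons (SD, n = 3), and the pooled SD of 0.341 in log2 units lay at percentile 91.7. The log2 fold change was -0.12 in mutant (95% confidence interval -0.61 to 0.36) and -0.15 in heterozygous over wild-type colons (-0.63 to 0.34, limma adjusted p = 0.896). These intervals are the widest among the 13 probe sets. Single arrays turned the direction: the mutant value was -0.39 without mutant 3, 0.03 without mutant 2 and 0.06 without wild-type 3, and the heterozygous value was 0.04 without wild-type 3.

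Phosphofructokinase, the committing step, is made of liver (Pfkl), platelet (Pfkp) and muscle type subunits. Pfkl 1450269_a_at read 473.4, 507.6 and 534.1 in mutant, 422.5, 421.3 and 422.2 in heterozygous, and 475.1, 550.4 and 523.5 in wild-type colons. The 3 heterozygous colons lay below the 6 others, with an SD of 0.624 signal units between them (n = 3). On the normalized log2 scale, used for the fold changes, they lay further apart, at 8.88, 8.72 and 8.70. The log2 fold change was -0.29 in heterozygous over wild-type (limma, SE 0.109, adjusted p = 0.584) and 0.25 in mutant over heterozygous colons (SE 0.109, adjusted p = 0.655), and neither passed. The other Pfkl probe set, 1439148_a_at, read 634.1, 630.6 and 574.5 in mutant, 569.2, 498.8 and 470.5 in heterozygous, and 650.6, 606.9 and 548.1 in wild-type colons. It had a like log2 fold change of -0.24 in heterozygous over wild-type (adjusted p = 0.716), but there heterozygous 1 reached the wild-type values. Without single arrays it lay between -0.13 (without wild-type 1) and -0.36 (without heterozygous 1). The 2 probe sets had a Pearson r of 0.76 over the 9 arrays.

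Pfkp 1416069_at read 2273, 2271 and 2085 in mutant, 1985, 2106 and 1756 in heterozygous, and 2441, 2230 and 1993 in wild-type colons. Heterozygous and wild-type values overlapped. On the normalized scale all mutant colons lay above all heterozygous ones, with log2 fold changes of 0.18 in mutant over heterozygous (limma adjusted p = 0.676) and -0.18 in heterozygous over wild-type colons (adjusted p = 0.635). The dim Pfkp probe set, 1430634_a_at, read 16.6 to 55.1 in mutant, 15.9 to 47.1 in heterozygous and 6.8 to 49.1 in wild-type colons and was not tested. Beside the lower heterozygous values of Pfkl and Pfkp, the summed signal of 6 smooth muscle markers was 20270 to 22540 in heterozygous and 24930 to 25780 in wild-type colons. That of 7 named proximal colon epithelium markers was 16430 to 19990 in heterozygous and 19090 to 22250 in wild-type colons. No marker of either list was below the filter, and their part in the Pfkl and Pfkp values was not tested.

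Pgk1, which encodes the phosphoglycerate kinase of the first ATP-yielding step, was read differently by its 3 probe sets. The brightest, 1417864_at, read 4667, 4096 and 3764 in mutant, 4677, 3642 and 3563 in heterozygous, and 4769, 4034 and 3809 in wild-type colons. The groups overlapped, with log2 fold changes of 0.01 in mutant (95% confidence interval -0.11 to 0.14) and -0.07 in heterozygous over wild-type colons (-0.19 to 0.06). Probe set 1439435_x_at read 3187, 2041 and 2217 in mutant, 3638, 2397 and 2315 in heterozygous, and 2224, 1717 and 1898 in wild-type colons. The array numbered 1 was the highest in each genotype, heterozygous 1 stood above the rest, and all heterozygous values lay above the wild-type ones. The log2 fold change of heterozygous over wild-type was 0.49 (SE 0.16, limma adjusted p = 0.569), which did not pass, and 0.32 without heterozygous 1. That of mutant over wild-type was 0.31 (95% confidence interval -0.04 to 0.66, adjusted p = 0.998), with overlapping groups, and 0.17 without mutant 1. The third probe set, 1438640_x_at, read 1545, 1274 and 1328 in mutant, 2016, 1286 and 1116 in heterozygous, and 1356, 1129 and 1096 in wild-type colons. Heterozygous 1 was again the highest and the groups overlapped. Its log2 fold change was 0.20 in mutant (adjusted p = 0.998) and 0.24 in heterozygous over wild-type colons (adjusted p = 0.769), and the heterozygous value was -0.01 without heterozygous 1. It followed 1439435_x_at over the arrays (Pearson r = 0.85), whereas 1417864_at and 1439435_x_at had r = 0.08. The suffix x marks probe sets that may pick up other transcripts.

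Pkm encodes the muscle type pyruvate kinase, which makes pyruvate, and Ldha the lactate dehydrogenase subunit that turns it into lactate. Pkm read 2930, 2738 and 2946 in mutant, 3080, 2759 and 2739 in heterozygous, and 2538, 2775 and 2423 in wild-type colons. Wild-type 2 lay inside the range of the others, and the 2 other wild-type colons were the lowest. The log2 fold change was 0.16 in mutant (95% confidence interval -0.03 to 0.34) and 0.15 in heterozygous over wild-type colons (-0.03 to 0.34, limma adjusted p = 0.672); these 2 comparisons share the wild-type arrays. With array weights the values were 0.01 and 0.02. Ldha read 5640, 5605 and 4860 in mutant, 5811, 4580 and 4433 in heterozygous, and 6529, 5180 and 4902 in wild-type colons. Its log2 fold change was 0.01 in mutant (95% confidence interval -0.12 to 0.14) and -0.11 in heterozygous over wild-type colons (-0.24 to 0.02, adjusted p = 0.653). On the normalized scale the 3 heterozygous Ldha values lay below the wild-type ones, while on the deposited scale they overlapped. With centring on the median the heterozygous value was -0.19.

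**Figure D3:**
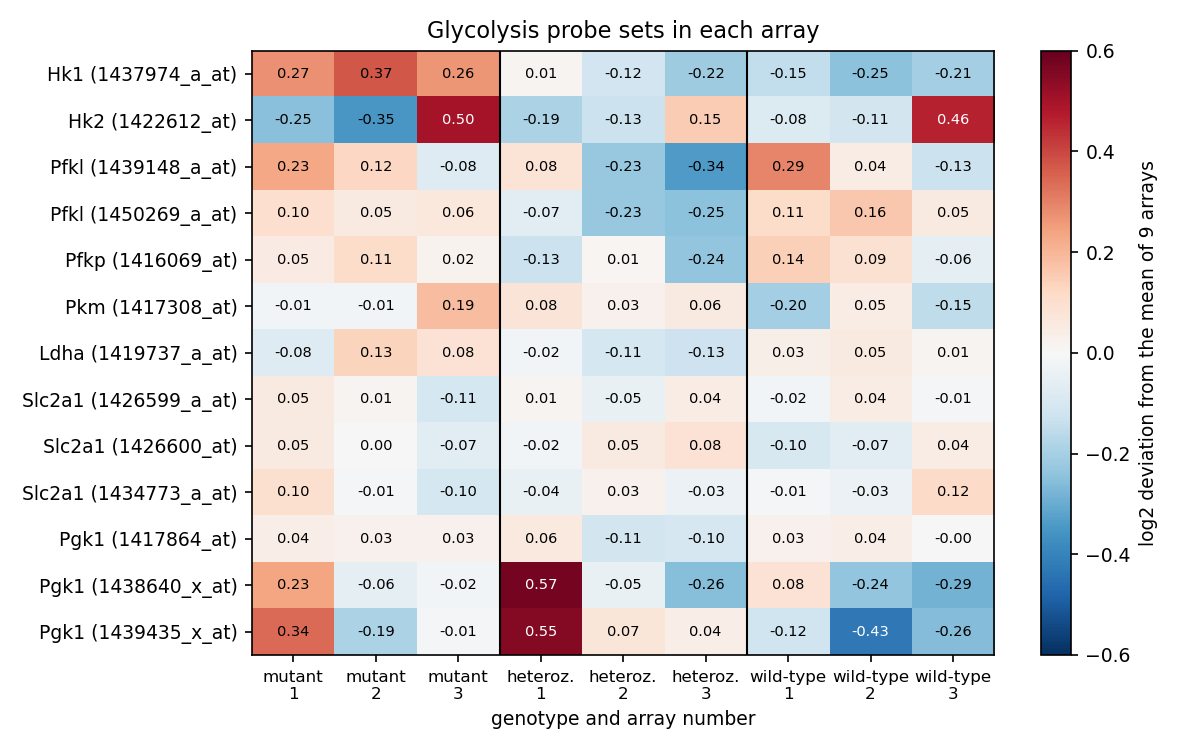
Deviation of each tested glycolysis probe set from its mean over the 9 arrays (log2, colour and number), with probe sets down the page and arrays by genotype and number across. Hk1 is high in the 3 mutant columns, Hk2 in the arrays numbered 3, and the 2 lower Pgk1 rows in heterozygous 1.

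By leading probe set, 1 per gene, 5 of the 8 genes had higher and 3 lower values in mutant than in wild-type colons, with a median log2 fold change of 0.01 beside 0.0036 over all probe sets tested. Hk1, selected on this contrast, is 1 of the higher genes. On the values as deposited the split turned to 3 higher and 5 lower, with a median of -0.01. In heterozygous against wild-type 2 were higher and 6 lower, with a median of -0.09 beside -0.0044 over all, also 2 and 6 on the values as deposited and with centring on the median. In mutant against heterozygous 8 were higher, with a median of 0.10 beside 0.0013, and 7 were without the 3 arrays numbered 1. Of these, Pkm, Slc2a1 and Hk2 lay at 0.00, 0.01 and 0.02, and Hk1 is not independent of the choice. Over all 13 tested probe sets 9 were higher and 4 lower there, with a median of 0.02. The median normalized log2 signal of the 8 leading probe sets per array was 11.27 to 11.36 in mutant, 11.16 to 11.27 in heterozygous and 11.15 to 11.32 in wild-type colons. Groups did not overlap on 1 of 13 probe sets, higher, in mutant against wild-type (4.23% of all were higher and 4.19% lower). It was the Hk1 probe set of the choice, and nothing is read from it. In heterozygous against wild-type there were 1 higher (7.28%) and 2 lower (7.42%). In mutant against heterozygous there were 3 higher (6.35%) and none lower (6.08%): Hk1 1437974_a_at, Pfkl 1450269_a_at and Pfkp 1416069_at. Hk1 is not independent of the choice there.

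The other enzymes of glycolysis gave small values. Of 18 listed, 12 had a tested leading probe set, and none passed in any comparison. In mutant against wild-type 11 of the 12 had higher values, with a median log2 fold change of 0.06 and a largest value of 0.21, for Eno2, a neuronal enolase. Without the 3 arrays numbered 1 the count was 8 of 12. In heterozygous against wild-type 5 were higher and 7 lower, with a median of -0.03. In mutant against heterozygous 10 were higher and 2 lower, with a median of 0.08, also 10 and 2 without the 3 arrays numbered 1. Aldoa, the aldolase of muscle and most tissues, read 6674 ± 890 in mutant, 6470 ± 1030 in heterozygous and 6856 ± 1360 in wild-type colons (SD, n = 3) on its leading probe set, with log2 fold changes of 0.03 in mutant and 0.01 in heterozygous over wild-type. Its other probe sets, 1416921_x_at, 1434799_x_at and 1433604_x_at, had 0.02, 0.05 and -0.13 in mutant over wild-type colons. In mutant over heterozygous colons they had 0.02, 0.00 and -0.16 (limma adjusted p = 0.655 for the last). Pfkm, the muscle phosphofructokinase subunit, had 0.06 and -0.14, and Pklr, the liver and red cell pyruvate kinase, 0.08 and -0.04. In mutant over heterozygous colons Pfkm had 0.21 and Pklr 0.12 (limma adjusted p = 0.732 and 0.742). Gapdh, the dehydrogenase in the middle of the pathway, had no probe set with its symbol alone besides the control probe sets of the array, which were not tested. A probe set that carries 5 symbols, Gapdh among them, had log2 fold changes of -0.03 in mutant and -0.09 in heterozygous over wild-type colons and cannot be assigned to it. The middle control probe set gave 4194, 3731 and 3692 in mutant, 3989, 3828 and 3865 in heterozygous, and 4007, 3947 and 4060 in wild-type colons, all overlapping.

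Regulators and transporters around the pathway, 16 tested of 23 listed, had a median log2 fold change of 0.00 in mutant and 0.02 in heterozygous over wild-type colons, and none passed. Slc5a1, the sodium-coupled glucose transporter SGLT1, read 1125, 1193 and 1585 in mutant, 1992, 1795 and 1539 in heterozygous, and 1060, 1240 and 1372 in wild-type colons on its leading probe set. The heterozygous values lay above the wild-type ones, with a log2 fold change of 0.50 (limma adjusted p = 0.49). Its other probe set had -0.07 and did not follow. Slc2a4, the insulin-regulated transporter GLUT4, read 450.2, 574.8 and 655.1 in mutant, 756.2, 721.7 and 932.4 in heterozygous, and 514.2, 684.2 and 760.7 in wild-type colons. Its mutant values lay below all heterozygous ones, with a log2 fold change of -0.50 in mutant over heterozygous (adjusted p = 0.523). The 2 adipocyte markers, summed, also did not overlap there, at 2126 to 4303 in mutant and 4344 to 6260 in heterozygous colons. On the normalized scale each of the 2 alone overlapped. The part of these markers in the Slc2a4 values was not tested.

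The hypoxia response, whose factor HIF-1 is a known activator of glycolysis genes, had 13 tested genes of 18 listed, and none passed. In mutant against wild-type 6 were higher and 7 lower (7 and 6 on the values as deposited), and the median log2 fold change was -0.01. In heterozygous against wild-type 10 were higher and 3 lower (median 0.04), and in mutant against heterozygous 3 were higher and 10 lower (median -0.05). Without the 3 arrays numbered 1 these splits were 7 and 6, and 6 and 7. Hif1a itself read 1831 ± 130 in mutant, 1877 ± 75.1 in heterozygous and 2145 ± 291 in wild-type colons (SD, n = 3) on its leading probe set (log2 fold change -0.22 in mutant and -0.18 in heterozygous over wild-type). Kdm3a, a histone demethylase induced by hypoxia, read 545.7, 574.0 and 540.6 in mutant, 494.9, 484.7 and 657.6 in heterozygous, and 417.9, 451.5 and 448.0 in wild-type colons. Its wild-type values lay below the 6 others, with log2 fold changes of 0.32 in mutant and 0.29 in heterozygous over wild-type (limma adjusted p = 0.998 and 0.612). Ddit4, a stress-induced inhibitor of mTOR, had -0.41 in mutant over heterozygous colons (adjusted p = 0.648).

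Genes of the reverse pathway, gluconeogenesis, had lower values in mutant than in wild-type colons in 6 of 6 tested, but none passed, and their median log2 fold change was -0.18. Without the 3 arrays numbered 1, 4 of these 6 were higher and the median was 0.03, and with centring on the median 5 were lower. Pck1, which makes phosphoenolpyruvate, had -0.27 in mutant over wild-type colons and Fbp2, a fructose bisphosphatase, -0.18 (limma adjusted p = 0.998 for both). In the pentose phosphate branch, which makes NADPH and ribose, 3 of 6 were higher and 3 lower in mutant colons, with a median of 0.01. Of these, Rpia, an isomerase of ribose 5-phosphate, had -0.21 in heterozygous over wild-type colons (adjusted p = 0.695) and Pgd, a dehydrogenase that yields NADPH, -0.15 (adjusted p = 0.742).

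**Figure D4:**
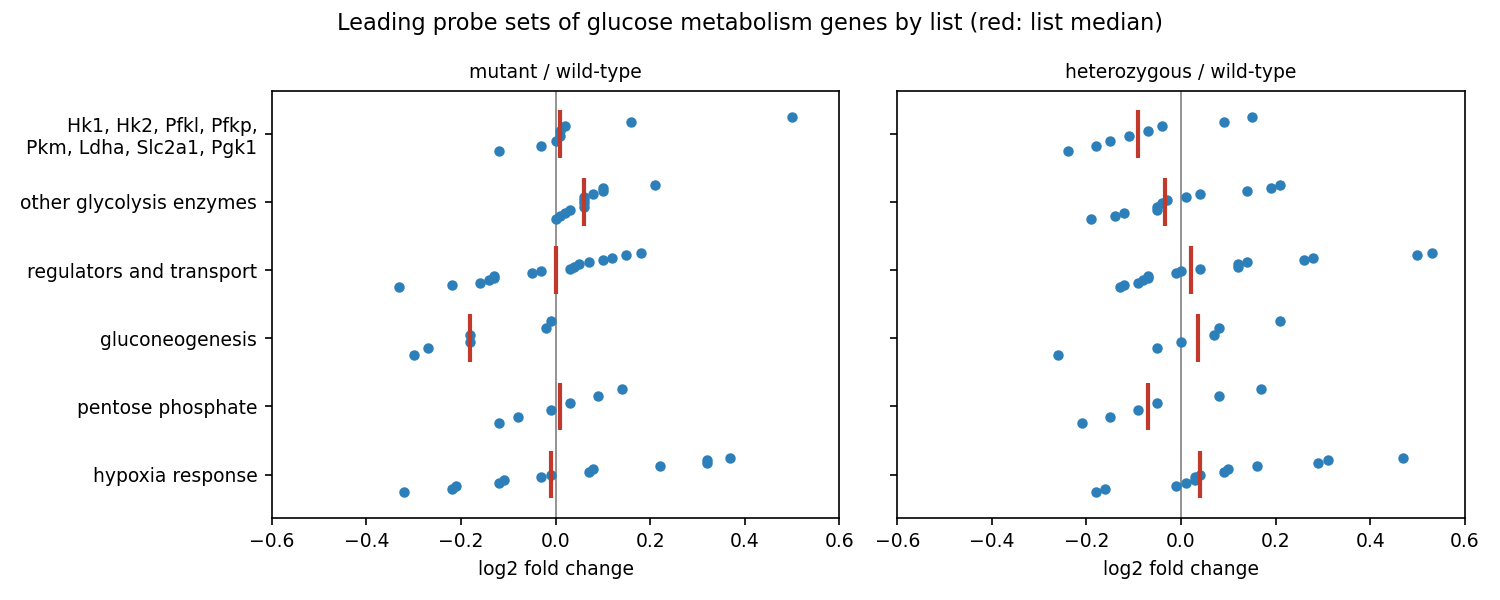
Log2 fold change (x axis) of the leading tested probe set of each gene in 6 lists of glucose metabolism, mutant over wild-type on the left and heterozygous over wild-type on the right; each point is 1 gene and the red line the median. Hk1 is the point at 0.50 in the top row on the left. It was selected on that contrast, so nothing is read from its distance to the 7 other genes of that row, at -0.12 to 0.16. Pgk1 probe sets 1438640_x_at and 1439435_x_at, at 0.20 and 0.31 there, are not leading and are not drawn.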

How the data were processed

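RNA from 9 colons was amplified from about 50 ng of total RNA with a NuGEN kit and measured on arrays, per the labels. The authors deposited linear intensities, which GCOS produced per the submitters' processing notes; the version is not given in the sources used here. After 16 was added and log2 taken, the 22626 probe sets left without 64 controls were quantile normalized. Those with a mean normalized log2 signal under the 40th percentile (a signal of about 75.5) were left out, which left 13576. The mean could also be read as one of linear signals, and controls could stay in the normalization; all 3 readings were run, and the one kept was picked because its counts matched those of earlier processing of these data. The 16 shrinks changes of dim probe sets. Each was tested with limma 3.58.1 (R 4.3.3; lmFit, eBayes with a trend) in 1 fit over 9 arrays, with Benjamini-Hochberg adjustment over all probe sets tested and a threshold of 0.05. The 3 arrays per genotype limit the precision. Deposited signals are printed for levels and the normalized scale for fold changes. Gene names follow the platform's annotation, under which 20380 probe sets have 1 symbol, 691 several and 1555 none here. Promoter letters were searched in RefSeq windows of build GRCm38.p6. Figures were drawn in matplotlib 3.10.9 under Python 3.11.15.

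The members, the gene lists and the tests were chosen with earlier results of these data known. The leading probe set of a gene has the highest mean normalized log2 signal among those with 1 symbol. Named outside the 9 genes are list members with an unadjusted p under 0.05 on a tested leading probe set in any comparison, or otherwise the 2 with the smallest, and always Gapdh, Aldoa and Hif1a; Eno2 is named for the largest value, after its values were seen. Markers are given as sums and counts, with those under the filter named. Alternatives were other scalings, pseudocounts of 1 and 64, filters, eBayes settings, array weights, the 2 genotypes alone, the replicate number as a block, and leaving out arrays. The other filter reading and the normalization with controls were added after seeing the data. The labels call the mice biological replicates.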

Additional observations from a re-analysis of the deposited data

How the results depend on the processing

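Over 23 alternatives, the log2 fold change of Hk1 1437974_a_at in mutant against wild-type colons lay between 0.47 and 0.55 (a description, since Hk1 was selected on it). In heterozygous against wild-type it lay between 0.03 and 0.14, and in mutant against heterozygous between 0.36 and 0.49. Of 1035 values of fold changes of these glycolysis genes under the alternatives, 5 moved by more than the spread between replicates: Pkm in both comparisons with wild-type with array weights, Ldha with centring on the median and without the 3 arrays numbered 1, and Slc2a1 1426600_at with centring. Outside the contrast on which Hk1 was selected, no probe set of these genes passed under any alternative run.

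Counts over the whole array moved more. Mutant against wild-type had 3 probe sets passing, 9 with array weights, 9 without the 3 arrays numbered 1 and 2 to 4 when single arrays were left out. Heterozygous against wild-type had 0 (limma, 1087 at an unadjusted p under 0.05), 134 with array weights and 0 to 3 without single arrays, the 3 without heterozygous 3. Mutant against heterozygous had 3, 5 with only the 2 genotypes compared, and 1 to 7 without single arrays: 1 without mutant 2 or heterozygous 1, 7 without heterozygous 3, 5 without wild-type 1 and 6 without wild-type 3. With the replicate number as a block, 5, 0 and 8 passed in the 3 comparisons. Deviations of same-numbered arrays correlated between -0.06 and 0.46, above 0.1 in 5 of 9 pairs, and 6 of the 9 correlated best with their own number. Arrays numbered 3 thus shared part of their deviations in every comparison (0.22 to 0.46), most in mutant and wild-type colons. Those numbered 1 did so in the comparisons with wild-type (0.29 and 0.31) but not between mutant and heterozygous colons (-0.05). For number 2 the values were -0.06 to 0.03. The fit as reported does not include the number, and only the fit with the block does. With the filter on the mean linear signal, and with controls kept in the normalization, both added after seeing the data, 3, 0 and 3 passed, as in the fit as reported. The cause of these moves was not tested. The dim probe sets of Hk1 and Pfkp lie under the filter and have no test.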

Other observations

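Hif1a was read by 3 tested probe sets that did not go the same way in mutant over wild-type colons, with log2 fold changes of -0.22, 0.25 and 0.03. On 1416035_at it read 511.5, 523.5 and 799.0 in mutant and 384.2, 630.7 and 508.5 in wild-type colons. The ratio of 3′ to 5′ Gapdh control signal was 2.26, 2.26 and 1.79 in mutant, 2.18, 1.71 and 1.70 in heterozygous, and 2.90, 1.92 and 1.77 in wild-type colons.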
